A study of Mus musculus with 4 samples.

Results

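The voltage-gated sodium and calcium channel genes were described on 4 Affymetrix mouse arrays. Members were all probe sets whose platform gene symbol named a sodium channel pore-forming or beta subunit, or a calcium channel pore-forming, alpha2delta, beta or gamma subunit. The rule used gene names and no measured value. It found 85 of the 45101 probe sets, for 35 genes. Each probe set is made of several short probes, which the authors' values combine into 1 number.

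The labels name brain, hindbrain and spinal cord of the mouse as the tissue, and the molecule as total RNA. Of the 4 arrays, 2 were hybridised with cDNA that a Nugen kit had amplified. The remaining 2 received antisense RNA (aRNA), the product of a T7-based amplification. Arrays 0 and 1 of each preparation are so numbered in their titles. The labels give no strain, age, treatment or number of animals, nor do they state what the array numbers mean or whether both preparations started from the same RNA. The p-values below therefore measure only the spread between these arrays, which for the cDNA pair may be technical or may include different RNA. The cDNA pair was not the closer one. Its arrays differed by at least 1 on the log2 scale in 13.4% of all probe sets tested, against 8.58% for the aRNA pair.

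Sodium channels open when the membrane depolarises and carry the rising phase of the action potential, and calcium channels turn depolarisation into calcium entry that drives transmitter release, firing patterns and gene expression. In both families a large pore-forming subunit is accompanied by smaller auxiliary subunits. Sodium channel beta subunits alter gating and adhesion, calcium channel beta and alpha2delta subunits bring the pore to the membrane, and most genes named as calcium channel gamma subunits encode regulators of AMPA-type glutamate receptors.

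Levels are given as log2(intensity + 16), and differences are cDNA minus aRNA on that scale. Levels of different probe sets are not set against each other, since probes differ in affinity. Background on an array was taken as the 95th percentile of 27 control probe sets for Bacillus transcripts. It was 7.83 and 8.05 on cDNA arrays 0 and 1, against 7.12 and 7.15 on aRNA arrays 0 and 1. The 2% trimmed mean of the intensities was 2500.02 on each array, so the values had been scaled to a common mean. Genes that mark neurons (7 of 7 measured), astrocytes (6 of 6) and oligodendrocytes (5 of 5) lay above background on all 4 arrays. Their levels were not always alike within a preparation. The astrocyte gene Gfap had 11.77 and 12.90 on cDNA arrays 0 and 1, against 9.19 and 14.46 on aRNA arrays 0 and 1. Sex-linked transcripts set aRNA array 0 apart. Xist, made in female cells, gave 11.94 and 12.51 on cDNA arrays 0 and 1, against 8.55 and 15.44 on aRNA arrays 0 and 1. Eif2s3y, a Y-linked gene, gave 7.92 and 4.75 on the cDNA arrays, against 13.12 and 6.79 on the aRNA arrays. The spread of the aRNA pair is thus not that of repeated readings of the same RNA, and counts without aRNA array 0 are given below.

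Most channel genes were detected. Of the 85 probe sets, 47 (55.3%) lay above background on all 4 arrays, against 48.0% of all probe sets, and 6 lay under it on all 4, against 14.9% of all. At least 1 probe set was above background on all 4 arrays for 28 of the 35 genes. The 7 others were Scn10a, Scn3b, Cacna1f, Cacna1s, Cacna2d4, Cacng1 and Cacng4. Members above background numbered 56 and 57 on cDNA arrays 0 and 1, against 70 and 68 on aRNA arrays 0 and 1, where the background level itself was lower. Detection on both arrays of 1 preparation and neither of the other was seen in 12 members. Above background on the cDNA arrays only were 3 (3.53%, against 2.15% of all probe sets), of Scn2a, Scn3b and Cacna1b. Above it on the aRNA arrays only were 9 (10.6%, against 7.72% of all), of Scn2b, Cacna1f, Cacna1a, Cacna2d1 (2), Cacnb2, Cacng2, Cacng6 and Cacng7. Because the background differed, this does not always mean a difference in level: with background as the floor, a fold bound above 1 could be set for 3 of the 3 and for 6 of the 9, and Cacna2d1 1425861_x_at, 1 of the 9, had 7.63 and 7.35 on the cDNA arrays, against 7.24 and 7.35 on the aRNA arrays. Under background on all 4 arrays were the 1 probe set of Cacna1s and dim ones of Scn7a, Scn3b, Cacna2d4, Cacnb1 and Cacng8.

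**Figure D1:**
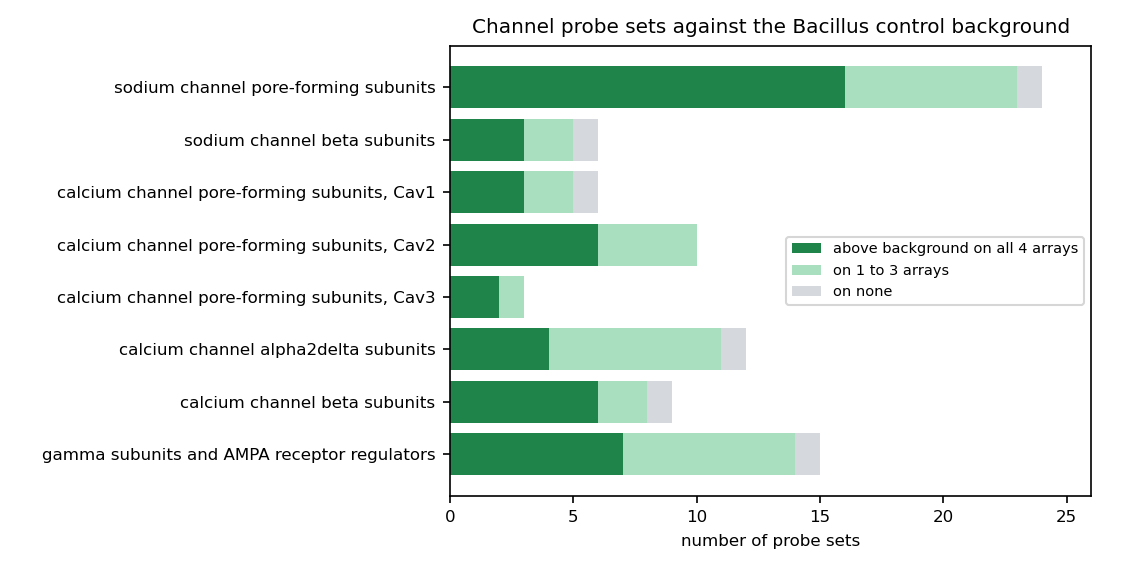
The number of channel probe sets in each subunit class (rows) is split by how many of the 4 arrays lay above the Bacillus control background. The sodium channel pore-forming class had 16 of 24 probe sets above it on all 4 arrays, and the alpha2delta class 4 of 12.

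The preparations were compared to see which channel probe sets read differently on the cDNA and on the aRNA arrays. By the sex-linked transcripts, the RNA of aRNA array 0 was not that of the cDNA arrays. Target preparation and RNA source therefore cannot be told apart in the differences below. The pore-forming subunits of Cav1 and Cav2 calcium channels were mostly higher on cDNA, with 6 of their 9 tested probe sets called higher and none lower. That is 66.7% higher, against 20.2% of all probe sets tested. Joining Cav1 with Cav2 was not among the planned comparisons. The 6 calls include 1460608_at and 1436602_x_at of the same gene, Cacna1b. Over all calcium channel pores, Cav3 included, 6 of 11 were called higher (54.5%) and none lower. Over all pores of both families 8 of 26 were called higher and 1 lower. Of the 22 tested probe sets of auxiliary subunits of both families and gamma genes, 8 were called lower and 1 higher. The shares were 36.4% lower, against 22.9% of all probe sets tested, and 4.55% higher, against 20.2%. That split changed with single arrays left out: it was 4 lower and 4 higher without cDNA array 0, 4 lower and 1 higher without aRNA array 0, and 6 or 7 lower and 1 higher without each of the others, while the Cav1 and Cav2 counts were 6 or 7 higher and none lower whichever array was left out. In all, 48 members passed the filter on level (a mean over the 4 arrays of at least 8.38) and were tested. Of these 9 were called higher (18.8%, against 20.2% of all 22519 probe sets tested), 9 lower (18.8%, against 22.9%), and 30 did not pass a limma adjusted p of 0.05 over all probe sets tested. As a whole the members were thus called at about the background rate. Their median difference was 0.02, against −0.11 for all probe sets tested, and their median absolute difference 0.88 against 0.88. Both cDNA arrays lay above both aRNA arrays in 18 tested members (37.5%, against 34.1% of all) and below both in 14 (29.2%, against 39.7%). Without aRNA array 0 the counts were 10 higher and 5 lower, where the shares over the whole table were 16.2% and 15.5%. The auxiliary split also depended on the filter. Cacng2 1453363_at and Cacng4 1450975_at passed it only through their aRNA values, with cDNA means of 6.56 and 7.32. Without the filter Cacnb2 1456401_at (limma adjusted p = 0.0632) and Cacng4 1450975_at (0.0679) were not called lower. Scn3b 1435767_at, which the filter had left out, was then called higher (0.0186). Subunit classes were compared by counts, with no test between classes, and an exact two-sided permutation test of 2 arrays against 2 could reach p = 0.333 at the lowest.

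**Figure D2:**
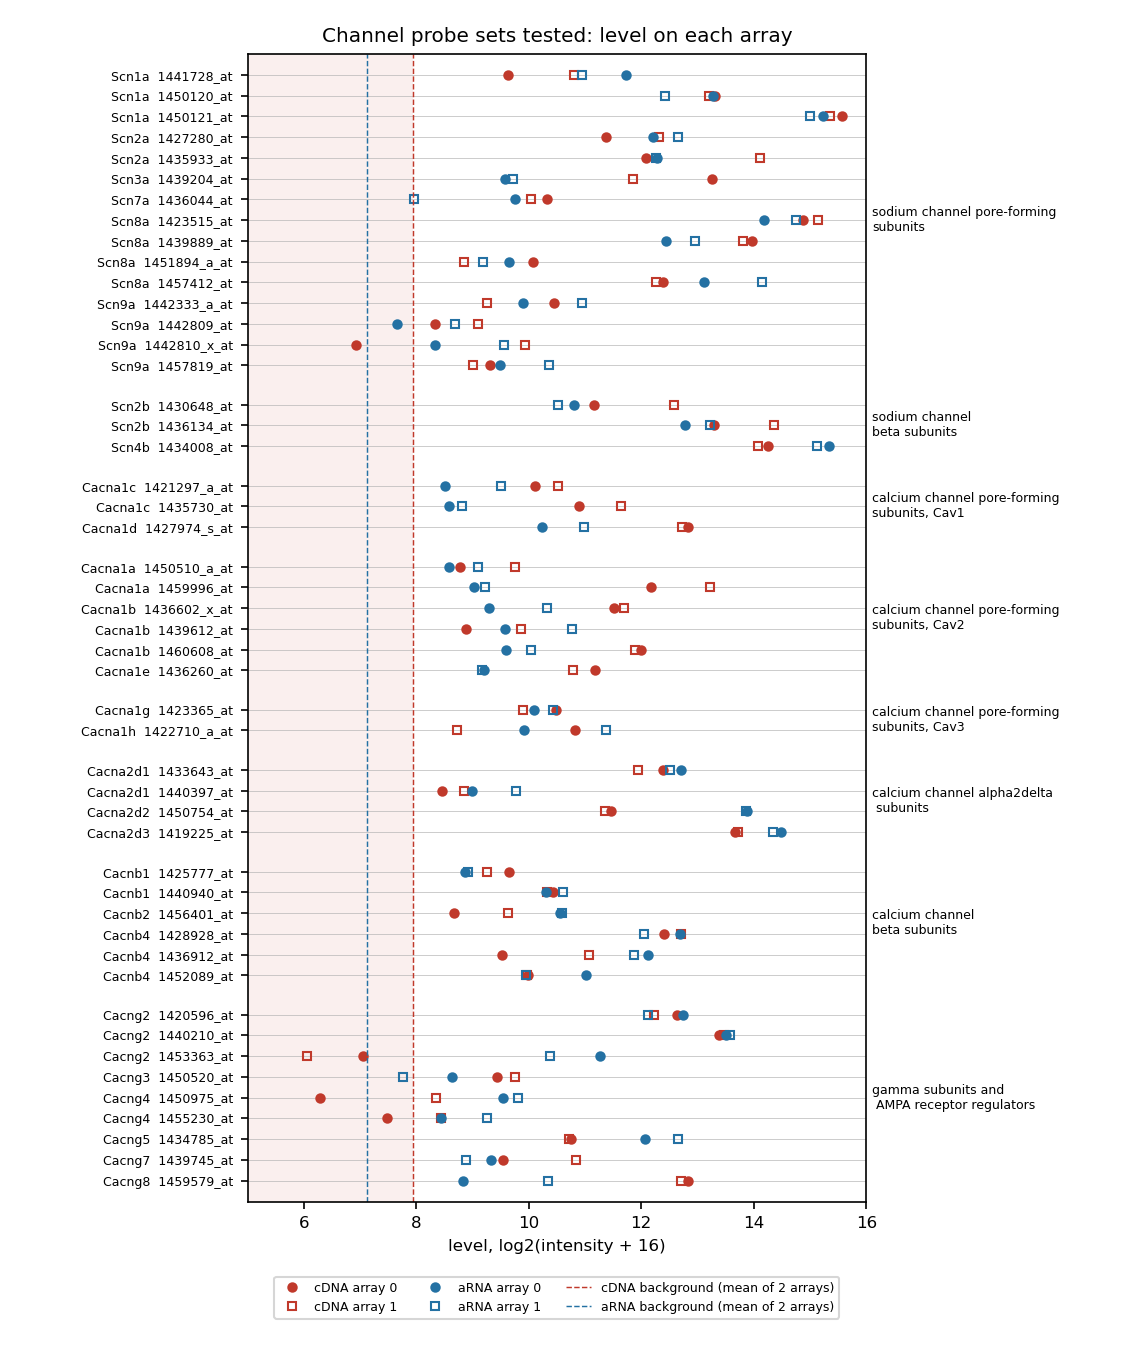
Each row is 1 of the 48 channel probe sets tested, with its level, log2(intensity + 16), on cDNA arrays (red) and aRNA arrays (blue), array 0 as filled circles and array 1 as open squares. Dashed lines mark the mean background of each preparation and shading the range under that of cDNA. Levels can be compared along a row only. The cDNA points lie right of the aRNA points in most Cav1 and Cav2 rows and left of them in all 4 alpha2delta rows.

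The sodium channel pore-forming genes of the central nervous system were called between the preparations at 1 probe set of Scn3a and 2 of Scn8a. The class had 15 tested probe sets. The calls were 2 toward cDNA (13.3%, against 20.2% of all probe sets tested) and 1 toward aRNA (6.67%, against 22.9%). The other 12 did not pass. Scn1a, the channel of fast-spiking interneurons whose loss causes epilepsy, had 15.58 and 15.35 on cDNA arrays 0 and 1 at probe set 1450121_at, against 15.23 and 14.99 on aRNA arrays 0 and 1. The cDNA arrays were above the aRNA arrays, but the difference of 0.35 did not pass (SE 0.19, limma adjusted p = 0.171). The other 2 Scn1a probe sets differed by 0.41 and −1.13 and were not called either, the second except without cDNA array 1 (−1.72, adjusted p = 0.0176).

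Scn3a, a channel best known from the embryonic and newborn brain, showed the largest difference among the tested probe sets of the sodium channel genes. At 1439204_at it had 13.26 and 11.85 on cDNA arrays 0 and 1, against 9.58 and 9.72 on aRNA arrays 0 and 1. The groups did not overlap. The means were 12.56 ± 0.996 on cDNA and 9.65 ± 0.101 on aRNA (SD, n = 2 each), a difference of 2.91 (SE 0.46, limma adjusted p = 0.00126). Its other probe set, 1421705_at, was above background on aRNA array 1 alone and was not tested.

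Scn2a, a channel of excitatory neurons and their axons, depended on 1 array. At 1435933_at it had 12.08 and 14.11 on cDNA arrays 0 and 1, against 12.27 and 12.26 on aRNA arrays 0 and 1, so cDNA array 1 alone was high. The difference of 0.83 was not called (limma adjusted p = 0.247), while it was 1.85 without cDNA array 0 (adjusted p = 0.00304) and −0.19 without cDNA array 1. At 1427280_at the difference was −0.59. A dimmer Scn2a probe set, 1427281_at, was above background on both cDNA arrays (9.12 and 9.38) and on neither aRNA array (4.71 and 6.95). It was at least 4.34-fold higher on cDNA, taking background as the floor, and was called only when no filter was used (adjusted p = 0.0323). Without the filter 11 members were called higher and 7 lower, against 10.4% and 10.8% of all probe sets. The last Scn2a probe set, 1445259_at, differed by −0.02.

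Scn8a, the channel of nodes of Ranvier and axon initial segments, was the 1 channel gene with calls in opposite directions. At 1439889_at it had 13.98 and 13.81 on cDNA arrays 0 and 1, against 12.44 and 12.95 on aRNA arrays 0 and 1, a difference of 1.20 (SE 0.26, limma adjusted p = 0.00596). At 1457412_at it had 12.39 and 12.26 on the cDNA arrays, against 13.11 and 14.15 on the aRNA arrays, a difference of −1.30 (SE 0.34, limma adjusted p = 0.0148). Neither pair of groups overlapped. With cDNA array 1 left out the second no longer passed (adjusted p = 0.0551), nor with aRNA array 1 left out (−0.78, adjusted p = 0.0973). The probe set 1423515_at had 14.88 and 15.14 on the cDNA arrays, against 14.18 and 14.75 on the aRNA arrays, and its difference of 0.55 was not called (adjusted p = 0.0977), while without aRNA array 1 it passed (0.83, adjusted p = 0.0236). The tested probe set 1451894_a_at differed by 0.05, and 1442208_at was above background on aRNA array 1 alone.

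The remaining sodium channel pore genes are best known outside central neurons. Scn9a, of sensory and sympathetic neurons, had 10.45 and 9.26 on cDNA arrays 0 and 1 at 1442333_a_at, against 9.90 and 10.94 on aRNA arrays 0 and 1. These overlapped (−0.57, limma adjusted p = 0.411), and the other 3 tested probe sets of the gene differed by −0.76 to 0.54, none called. Scn10a and Scn11a, the channels of nociceptors, had 1 probe set each and were too dim to be tested. Scn11a had 8.51 and 8.53 on the cDNA arrays, against 8.07 and 8.36 on the aRNA arrays, all just above background. Scn10a lay above background on cDNA array 0 and on both aRNA arrays, and under it on cDNA array 1 (5.08). Among sensory neuron markers, Prph was bright on all arrays (15.99 and 15.93 on cDNA, 16.13 and 16.19 on aRNA), P2rx3 lay above background on all 4 and Trpv1 and Avil on 3. Of the 5 measured, Isl1 alone was called, with 15.60 and 15.92 on the cDNA arrays, against 14.91 and 14.99 on the aRNA arrays (0.81, limma adjusted p = 0.00905, and 0.0775 without cDNA array 1). Trpv1 and Avil fell under the filter and were not tested. Avil had 9.24 and 9.95 on the cDNA arrays, against 7.66 and 6.41 on the aRNA arrays. It was at least 4.56-fold higher on cDNA, taking background as the floor, and passed when no filter was used (limma adjusted p = 0.0375). Trpv1 was at least 2.08-fold higher and did not pass then (0.247). Prph and Isl1 are also made by central neurons. Scn7a, which encodes a sodium sensor of glia that is not gated by voltage, had 10.33 and 10.05 on cDNA arrays 0 and 1 at 1436044_at, against 9.76 and 7.96 on aRNA arrays 0 and 1. The groups did not overlap, and the difference of 1.33 was not called (limma adjusted p = 0.106), except without aRNA array 0 (2.22, adjusted p = 0.0216).

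The sodium channel beta subunits did not go one way. Scn4b, which promotes the resurgent sodium current of fast-firing neurons, had 14.25 and 14.08 on cDNA arrays 0 and 1, against 15.34 and 15.12 on aRNA arrays 0 and 1. It was lower on both cDNA arrays by more than the spread within either pair, with a difference of −1.06 (SE 0.20, limma adjusted p = 0.00318). Scn2b, a beta subunit bound to the pore by a disulphide bridge, had 13.30 and 14.37 on the cDNA arrays at 1436134_at, against 12.78 and 13.22 on the aRNA arrays, with a difference of 0.83 (adjusted p = 0.087). It passed without cDNA array 0 (1.37, adjusted p = 0.0127). Its probe set 1430648_at gave 1.21 (adjusted p = 0.0618, and 0.00474 without cDNA array 0), and 1457144_at lay under background on both cDNA arrays. Scn3b, a beta subunit held by weaker contacts, was above background on the cDNA arrays (9.57 and 9.52) and under it on the aRNA arrays (4.89 and 6.83) at 1435767_at. It was at least 5.32-fold higher on cDNA. This probe set fell under the filter, and passed when none was used (limma adjusted p = 0.0186). The other Scn3b probe set was under background on all 4 arrays.

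The Cav1 genes, whose channels carry the long-lasting L-type current, were higher on cDNA at all 3 tested probe sets, 2 of them called. Of all probe sets tested, 34.1% had both cDNA arrays above both aRNA arrays and 20.2% were called higher. Cacna1c, the main L-type pore of brain, heart and smooth muscle, had 10.90 and 11.64 on cDNA arrays 0 and 1 at 1435730_at, against 8.58 and 8.81 on aRNA arrays 0 and 1. The means were 11.27 ± 0.52 on cDNA and 8.69 ± 0.16 on aRNA (SD, n = 2 each), a difference of 2.57 (SE 0.42, limma adjusted p = 0.00157). At 1421297_a_at the difference was 1.30 and missed the threshold (adjusted p = 0.0558), while without aRNA array 1 it passed (1.80, adjusted p = 0.0408). Between the preparations, smooth muscle markers moved the same way. Of 4 measured, 3 were tested and all 3 were called higher, and their summed intensity was 69813 and 24788 on the cDNA arrays, against 3333 and 7599 on the aRNA arrays. Within the cDNA pair that sum was lower on array 1, where Cacna1c at 1435730_at was higher. Within the aRNA pair both were higher on array 1. The part of these markers in the Cacna1c difference was not tested. Cacna1d, an L-type pore that opens at lower voltage, had 12.83 and 12.72 on the cDNA arrays at 1427974_s_at, against 10.24 and 10.99 on the aRNA arrays. This is a difference of 2.16 (SE 0.34, limma adjusted p = 0.00119), with all cDNA values above all aRNA values. The other Cacna1d probe set, 1428051_a_at, was above background on aRNA array 0 alone, differed by 0.02 and was not tested.

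The 2 other Cav1 genes serve tissues outside the labelled ones. Cacna1s, the voltage sensor of skeletal muscle, lay under background on all 4 arrays, with 6.61 and 6.88 on cDNA arrays 0 and 1, against 6.39 and 6.50 on aRNA arrays 0 and 1. Of 8 skeletal muscle markers 3 were also under background on all arrays and 1, Mylpf, was above it on all. Cacna1f, the L-type pore of photoreceptors, was under background on both cDNA arrays (6.04 and 7.53) and above it on both aRNA arrays (9.20 and 7.75). It was not tested, and of 4 measured retinal markers 2, Rcvrn and Gnat1, were under background on all arrays while Pde6b was above it on all.

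The Cav2 genes encode the calcium channels of nerve terminals. Of their 6 tested probe sets 4 were called higher on cDNA, at least 1 for each gene, and none lower. That is 66.7% higher, against 20.2% of all probe sets tested. Cacna1a, the P/Q-type pore that is abundant in Purkinje cells of the cerebellum, had 12.18 and 13.22 on cDNA arrays 0 and 1 at 1459996_at, against 9.02 and 9.22 on aRNA arrays 0 and 1. The means were 12.70 ± 0.73 on cDNA and 9.12 ± 0.14 on aRNA (SD, n = 2 each). The difference of 3.58 was the largest toward cDNA among the members tested (SE 0.41, limma adjusted p = 0.000259). The other tested Cacna1a probe set, 1450510_a_at, overlapped between the groups and differed by 0.43 (adjusted p = 0.537). Of the 2 dim ones, 1430408_at was above background on the aRNA arrays only and 1444455_at on aRNA array 0 only. The Purkinje cell markers Pcp2, Calb1 and Car8, all 3 that were measured, were called higher on cDNA as well, with a summed intensity of 16938 and 32223 on the cDNA arrays, against 1134 and 374 on the aRNA arrays. Other genes described below as cerebellar did not go this way. Cacna2d2 was called lower at 1450754_at (−2.47), and Cacng2 was called lower at 1453363_at and not called elsewhere. The part of the Purkinje cell markers in the Cacna1a difference was not tested.

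Cacna1b, the N-type pore that drives transmitter release and is blocked by cone snail toxins, was called higher at 2 of its 3 tested probe sets. At 1460608_at it had 11.99 and 11.89 on cDNA arrays 0 and 1, against 9.60 and 10.03 on aRNA arrays 0 and 1, a difference of 2.13 (SE 0.34, limma adjusted p = 0.00138). At 1436602_x_at, whose suffix marks probes that may cross-hybridise, it had 11.51 and 11.70 on the cDNA arrays, against 9.30 and 10.32 on the aRNA arrays, a difference of 1.79 (adjusted p = 0.00836). At 1439612_at the groups overlapped and the difference was −0.80 (adjusted p = 0.265). The dim 1425812_a_at was above background on both cDNA arrays only, at least 2.62-fold higher, and was not called without the filter (adjusted p = 0.0825). Cacna1e, the R-type pore, had 11.19 and 10.79 on cDNA arrays 0 and 1 at 1436260_at, against 9.21 and 9.18 on aRNA arrays 0 and 1. The difference was 1.79 (SE 0.39, limma adjusted p = 0.00582) and the groups did not overlap.

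The start regions of 4 called genes are shown, 2 called higher on cDNA (Cacna1b and Cacna1e) and 2 called lower (Cacna2d2, described below, and Scn4b). They are the 250 bases before and 50 bases after the annotated start, from RefSeq on GRCm38.p6, read 5′ to 3′ on the gene's strand, with GGGCGG or its complement, the core of a GC box, in capitals. They were picked among called genes with a single start in the table, which held 27 of the 35 genes in 37 windows.
Cacna1b, chr2:24763103-24763402, minus strand: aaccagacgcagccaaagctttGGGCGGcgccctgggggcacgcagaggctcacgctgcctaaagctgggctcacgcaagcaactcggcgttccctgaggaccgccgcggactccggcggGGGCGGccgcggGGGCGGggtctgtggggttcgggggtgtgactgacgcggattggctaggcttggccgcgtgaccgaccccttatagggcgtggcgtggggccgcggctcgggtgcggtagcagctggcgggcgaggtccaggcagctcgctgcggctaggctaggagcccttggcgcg
Cacna1e, chr1:154725871-154726170, minus strand: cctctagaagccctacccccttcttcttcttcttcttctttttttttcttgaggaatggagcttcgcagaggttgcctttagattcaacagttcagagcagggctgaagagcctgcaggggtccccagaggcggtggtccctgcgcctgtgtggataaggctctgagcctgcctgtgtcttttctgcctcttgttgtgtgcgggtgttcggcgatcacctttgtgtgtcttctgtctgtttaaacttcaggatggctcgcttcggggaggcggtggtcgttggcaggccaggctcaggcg
Cacna2d2, chr9:107399630-107399929, plus strand: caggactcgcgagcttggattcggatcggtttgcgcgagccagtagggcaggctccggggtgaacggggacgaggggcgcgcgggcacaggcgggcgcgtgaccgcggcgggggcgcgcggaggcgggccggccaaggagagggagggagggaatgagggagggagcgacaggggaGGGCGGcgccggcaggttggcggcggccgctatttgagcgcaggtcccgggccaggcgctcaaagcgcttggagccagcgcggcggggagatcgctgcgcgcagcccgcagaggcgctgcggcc
Scn4b, chr9:45138374-45138673, plus strand: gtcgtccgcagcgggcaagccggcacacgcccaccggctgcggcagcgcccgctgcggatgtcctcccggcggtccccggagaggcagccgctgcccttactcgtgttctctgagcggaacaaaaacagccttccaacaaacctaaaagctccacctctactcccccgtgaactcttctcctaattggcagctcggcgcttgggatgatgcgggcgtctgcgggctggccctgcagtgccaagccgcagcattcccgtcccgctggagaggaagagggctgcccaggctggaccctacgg
GGGCGG, searched on both strands, occurred 3 times for Cacna1b, once for Cacna2d2 and not at all in these windows of Cacna1e and Scn4b. It was found in 37.8% of the 37 channel windows, against 35.7% of all 32851 windows. TATAAA, searched likewise, was in none of the 4, in 5.41% of the channel windows and in 13.6% of all. CG dinucleotides numbered 35 in Cacna1b, 11 in Cacna1e, 43 in Cacna2d2 and 26 in Scn4b, with a median of 9 over the channel windows and 7 over all. No comparison of these letters was tested. Whether transcription begins at the annotated starts was not tested either. In the Cacna1e window an ATG, the letters of a start codon, lies almost at the annotated start.

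The Cav3 genes, whose T-type channels open near rest and support rhythmic firing, were not called. Cacna1g had 10.49 and 9.89 on cDNA arrays 0 and 1, against 10.10 and 10.43 on aRNA arrays 0 and 1, a difference of −0.08. Cacna1h was unsteady within each preparation, with 10.82 and 8.72 on the cDNA arrays at 1422710_a_at, against 9.92 and 11.38 on the aRNA arrays. Its difference was −0.88 (SE 0.71, limma adjusted p = 0.344), and −1.93 (adjusted p = 0.0349) without cDNA array 0.

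The alpha2delta subunits, extracellular partners of the pore, had both cDNA arrays below both aRNA arrays at all 4 tested probe sets, and 2 of these were called lower. Over all probe sets tested the shares were 39.7% below and 22.9% called lower. Of the 12 alpha2delta probe sets 8 were not tested. Cacna2d2, a binding site of gabapentin that is prominent in the cerebellum, had 11.46 and 11.36 on cDNA arrays 0 and 1 at 1450754_at, against 13.89 and 13.87 on aRNA arrays 0 and 1. The means were 11.41 ± 0.07 on cDNA and 13.88 ± 0.01 on aRNA (SD, n = 2 each), so the difference of −2.47 far exceeded the spread within either pair (SE 0.25, limma adjusted p = 0.000147). Its 2 other probe sets were too dim to be tested, at 1.03 and −0.29. Cacna2d3 had 13.67 and 13.73 on the cDNA arrays, against 14.49 and 14.34 on the aRNA arrays, a difference of −0.72 (SE 0.21, limma adjusted p = 0.0227). It no longer passed with cDNA array 0 left out (adjusted p = 0.0911), nor with cDNA array 1 (adjusted p = 0.0724) or aRNA array 0 (adjusted p = 0.0967) left out.

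Cacna2d1, the other gabapentin target, had 12.38 and 11.95 on cDNA arrays 0 and 1 at 1433643_at, against 12.70 and 12.50 on aRNA arrays 0 and 1. The difference of −0.44 was not called (limma adjusted p = 0.241), nor was that of −0.74 at 1440397_at. The 3 other Cacna2d1 probe sets were under background on 2 or 3 arrays. Cacna2d4, a subunit of retinal channels, was not above background on all arrays at any of its 3 probe sets. At the brightest, 1457703_at, it had 9.23 and 8.05 on the cDNA arrays, against 7.70 and 7.73 on the aRNA arrays.

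The calcium channel beta subunits are cytoplasmic and bind the pore's first intracellular loop. Of 6 tested probe sets 2 were called lower on cDNA (33.3%, against 22.9% of all probe sets tested) and none higher. Cacnb2 had 8.66 and 9.63 on cDNA arrays 0 and 1 at 1456401_at, against 10.55 and 10.58 on aRNA arrays 0 and 1, a difference of −1.42 (SE 0.46, limma adjusted p = 0.0331). It failed the test with cDNA array 0 left out (−0.93, adjusted p = 0.101), and likewise with aRNA array 0 (adjusted p = 0.124) or aRNA array 1 (adjusted p = 0.129) left out. Cacnb4, whose loss causes ataxia and seizures in mice, was called at 1 of 3 probe sets. At 1436912_at it had 9.52 and 11.07 on the cDNA arrays, against 12.12 and 11.86 on the aRNA arrays, a difference of −1.70 (SE 0.49, limma adjusted p = 0.0212). Here cDNA array 0 was the low one, and the difference was −0.92 with it left out (adjusted p = 0.0745). It did not pass with aRNA array 0 left out either (adjusted p = 0.068). At 1428928_at Cacnb4 had 12.40 and 12.70 on the cDNA arrays, against 12.70 and 12.05 on the aRNA arrays, a difference of 0.18, and at 1452089_at −0.50. Cacnb1, the beta subunit of skeletal muscle that the brain also makes, had 10.43 and 10.33 on the cDNA arrays at 1440940_at, against 10.30 and 10.61 on the aRNA arrays. The values overlapped (−0.08), and 1425777_at gave 0.56, also not called.

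Among the tested probe sets, the gamma genes held the largest differences in both directions outside the Cav2 class. Of 9 tested probe sets 1 was called higher on cDNA (11.1%, against 20.2% of all probe sets tested) and 3 lower (33.3%, against 22.9%). Cacng8, a regulator of AMPA receptors in the hippocampus, had 12.84 and 12.71 on cDNA arrays 0 and 1 at 1459579_at, against 8.83 and 10.34 on aRNA arrays 0 and 1. The means were 12.78 ± 0.09 on cDNA and 9.59 ± 1.07 on aRNA (SD, n = 2 each), a difference of 3.19 (SE 0.48, limma adjusted p = 0.000933). Its second probe set was under background on all 4 arrays. Cacng5, of the second class of these regulators, went the other way, with 10.75 and 10.72 on the cDNA arrays at 1434785_at, against 12.07 and 12.65 on the aRNA arrays (−1.63, SE 0.32, limma adjusted p = 0.0039).

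Cacng2, or stargazin, which carries AMPA receptors to the synapses of cerebellar granule cells, gave unlike answers at its 3 probe sets. At 1440210_at it had 13.39 and 13.48 on cDNA arrays 0 and 1, against 13.50 and 13.58 on aRNA arrays 0 and 1, a difference of −0.11. At 1420596_at the difference was 0.00. At 1453363_at it lay under background on both cDNA arrays (7.06 and 6.06) and at 11.27 and 10.38 on the aRNA arrays. That is at least 7.37-fold lower on cDNA (limma adjusted p = 0.000642), while the other 2 probe sets of the gene differed by 0.11 or less.

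Cacng4 had 6.29 and 8.34 on cDNA arrays 0 and 1 at 1450975_at, against 9.55 and 9.80 on aRNA arrays 0 and 1. As cDNA array 0 was under background, it was at least 3.0-fold lower on cDNA (limma adjusted p = 0.0266). With cDNA array 0 left out it did not pass (−1.33, adjusted p = 0.0652), nor with aRNA array 0 (adjusted p = 0.0904) or aRNA array 1 (adjusted p = 0.127) left out. The other Cacng4 probe set differed by −0.89 and was not called (adjusted p = 0.269). Cacng3 had 9.44 and 9.75 on cDNA arrays 0 and 1, against 8.63 and 7.77 on aRNA arrays 0 and 1, a difference of 1.39 that did not pass (limma adjusted p = 0.0585). Cacng7 had 9.55 and 10.83 on the cDNA arrays at 1439745_at, against 9.34 and 8.88 on the aRNA arrays, a difference of 1.08 that did not pass either (adjusted p = 0.125), except without cDNA array 0 (1.73, adjusted p = 0.0198). In both genes the cDNA values lay above the aRNA values. Cacng6 was above background on all arrays at 1451811_at, with 8.18 and 8.39 on the cDNA arrays, against 7.33 and 7.63 on the aRNA arrays, and was not tested. Cacng1, the gamma subunit of the skeletal muscle channel, was above background on aRNA array 0 alone (7.42).

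**Figure D3:**
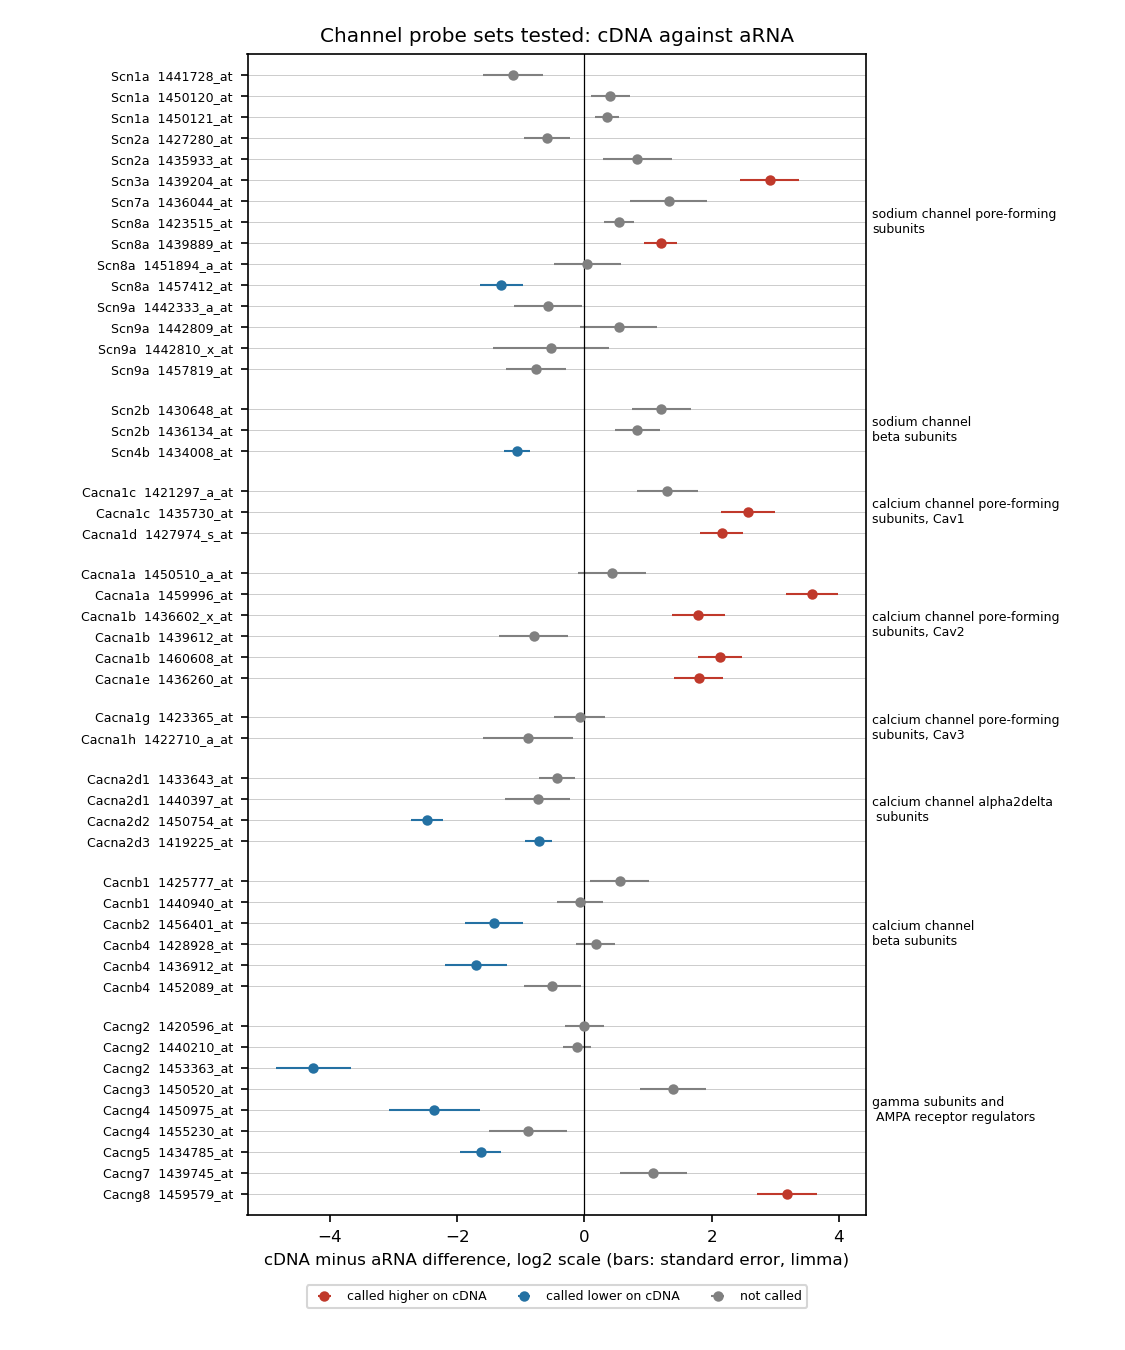
Each row is 1 of the 48 channel probe sets tested, with its cDNA minus aRNA difference on the log2 scale and the limma standard error as a bar. Red points were called higher on cDNA (9), blue points lower (9), and grey points were not called (30). Red points gather in the Cav1 and Cav2 rows and blue points in the alpha2delta, beta and gamma rows, and the rows of Scn8a, Cacna1a, Cacna1b, Cacnb4 and Cacng2 show that probe sets of 1 gene differed.

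Probe sets of a gene often disagreed. Of 13 channel genes with several tested probe sets, 8 had differences of both signs and 7 were called at some of them but not at all. The matching shares over all genes were not taken, so these counts are not read as particular to channel genes. Of the 2 channel genes with several called probe sets, Cacna1b agreed in direction and Scn8a did not. Among all genes, 45.4% of the 1688 with several called probe sets had calls in opposite directions. With the brightest probe set of each gene alone, 7 genes were called higher and 6 lower of the 27 tested. These are 25.9% and 22.2%, against 20.2% and 22.9% of all probe sets tested. The latter shares cover every tested probe set, and those of the brightest probe set of every gene were not taken. A difference given here therefore belongs to its probe set.

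The 2 arrays of a preparation also differed more in the channel genes than in the table at large. Between cDNA arrays 1 and 0 the median absolute difference was 0.41 for the 48 tested members, against 0.37 for all 22519 probe sets tested. For the aRNA arrays it was 0.51, against 0.33. Differences of at least 1 were seen in 14 members between the cDNA arrays (29.2%, against 13.4% of all) and in 11 between the aRNA arrays (22.9%, against 8.58%). No test was made of this. Of the 48, 16 were higher on number 1 in both preparations, 11 lower in both and 21 went opposite ways. Among the widest was Scn9a at 1442810_x_at, with 9.93 on array 1 and 6.93 on array 0 of the cDNA pair and 9.56 on array 1 and 8.34 on array 0 of the aRNA pair. It was also the 1 member with a difference of at least 1 in the same direction in both pairs, and its level on cDNA array 0 was under background.

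**Figure D4:**
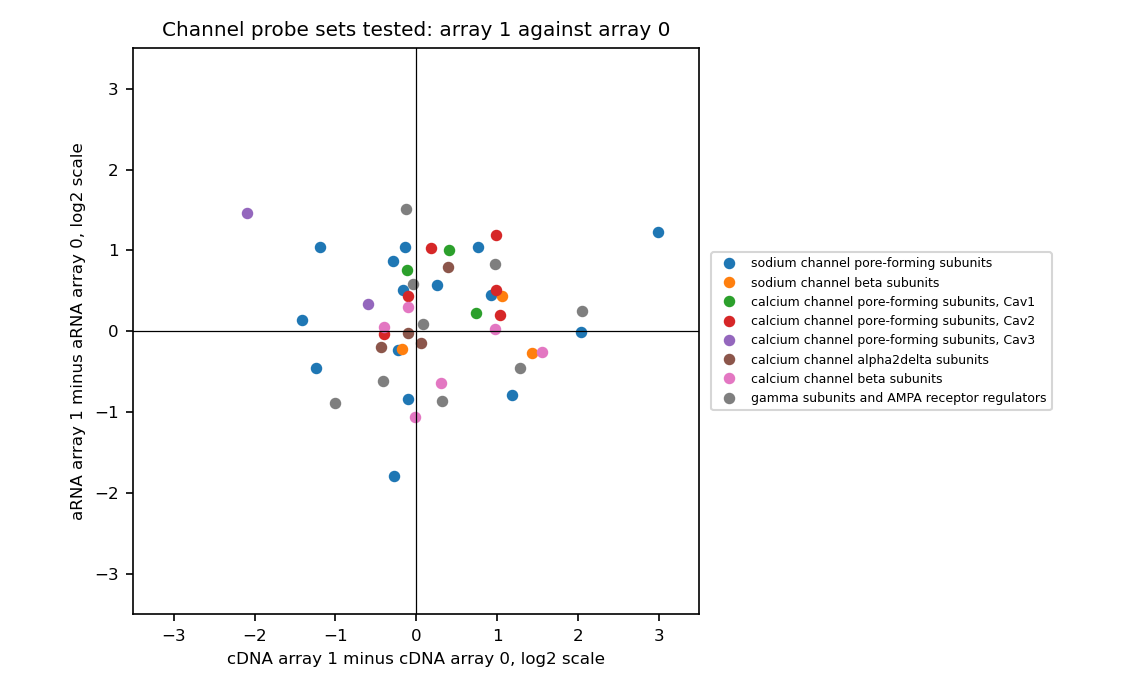
Each point is 1 of the 48 channel probe sets tested, coloured by subunit class. The horizontal axis gives cDNA array 1 minus cDNA array 0 and the vertical axis aRNA array 1 minus aRNA array 0, both on the log2 scale. The points fill all 4 quadrants, and the point at the far right is Scn9a (2.99 and 1.22), with 1 cDNA value under background.

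Genes whose products anchor, regulate or resemble these channels were read from a list of 35, of which 29 were measured and 24 tested. Calls toward cDNA numbered 7 (29.2%, against 20.2% of all probe sets tested) and calls toward aRNA 3 (12.5%, against 22.9%), and the median difference of the tested genes was 0.01. Nfasc, which gathers sodium channels at nodes, had 14.14 and 14.25 on cDNA arrays 0 and 1, against 12.11 and 12.39 on aRNA arrays 0 and 1, a difference of 1.95 (SE 0.24, limma adjusted p = 0.000363). Nedd4l, a ubiquitin ligase that removes sodium channels, had 12.61 and 12.57 on the cDNA arrays, against 9.76 and 10.66 on the aRNA arrays (2.38, limma adjusted p = 0.00113). Tpcn1, a cation channel of endosomes and lysosomes, had 12.28 and 10.96 on the cDNA arrays, against 9.29 and 9.64 on the aRNA arrays (2.15, limma adjusted p = 0.00644). Gem, a small GTPase that inhibits calcium channels, had 9.76 and 9.53 on the cDNA arrays, against 12.39 and 12.36 on the aRNA arrays (−2.73, limma adjusted p = 0.000306). Sptbn4, the spectrin of nodes and initial segments, differed by −1.04 (limma adjusted p = 0.0188) and Cntn1, an adhesion partner of the channels, by −0.81 (adjusted p = 0.00871). Both were called lower, Sptbn4 except with cDNA array 0 (adjusted p = 0.0649) or aRNA array 0 (adjusted p = 0.113) left out. Ank3, the ankyrin that binds the channels at the initial segment (−0.57), and Nalcn, the sodium leak channel (−0.11), were not called, though Ank3 passed with aRNA array 0 left out (−0.89, adjusted p = 0.0221) and with median centring (−0.72, adjusted p = 0.0431).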

How the data were processed

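Transcripts were measured on 4 arrays, 2 with cDNA target and 2 with aRNA target, grouped by the sample titles. The authors deposited linear intensity values, 1 for each probe set on each array, made by software not given in the sources used here. Their equal trimmed means show a scaling to a common mean, and they were used as they stand, as log2(intensity + 16), a scale that understates differences of dim probe sets. The number of arrays limits the precision. Leaving out 64 control probe sets, the 22519 of 45037 with a mean at or above the median were tested with limma 3.58.1 in R 4.3.3 (lmFit, then eBayes with a trend on intensity, 2 residual degrees of freedom, p-values adjusted by Benjamini-Hochberg), after a check on simulated data. Where an array on the dimmer side lay under background, a fold is a lower bound against the higher of background and the measured value on each array of that side.

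Symbols are those of the platform annotation, and all 35 matched the RefSeq gene table. Values on every array are given for the brightest probe set of each gene if it was above background on all arrays or called, for up to 10 called members per direction, and for genes with opposite calls; dimmer probe sets named besides were chosen after their values were seen. Of genes outside the channel families, up to 3 per list with the largest called difference are named by rule (Gem, Nedd4l and Tpcn1 among the partners), and Nfasc, Sptbn4, Cntn1, Ank3, Nalcn, the sex-linked genes and single markers not called were picked after their values were seen. For those lists the brightest probe set per gene was used. The members and lists were chosen with earlier results of these data known. Figures used matplotlib 3.10.9 (Python 3.11.15).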

Additional observations from a re-analysis of the deposited data

How the results depend on the processing

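The 18 called channel probe sets kept their direction with another pseudocount (1 or 64), median centring, quantile normalization and each array left out. Changing the filter (none, or at the 75th percentile, where 6 of the 18 were not tested), the intensity trend or the replicate block leaves the difference as it is and can move only the p. Of their 210 values, 192 also stayed past the threshold and 18 did not. Those 18 belong to Scn8a (1457412_at), Cacna2d3, Cacnb2, Cacnb4 and Cacng4. Without an intensity trend Scn8a (limma adjusted p = 0.0553), Cacna2d3 (0.0904) and Cacnb4 (0.0561) were lost and Cacng3 was gained (0.0377), and without the filter Cacnb2 (0.0632) and Cacng4 (0.0679) were lost. With 1 array left out, 9 to 13 members were called higher and 5 to 8 lower, and 7148 to 8538 of all probe sets, with the lone array of a preparation assumed to vary like the others. The cause was not tested. The median difference of the members ran from 0.03 to 0.10 in these. With the filter at the 75th percentile it was 0.35, and 6454 of all probe sets were called, since fewer were tested; 7 members were called higher and 6 lower. Median centring moved the median of all tested probe sets to −0.25 and that of the members to −0.13, and left 9 called each way.

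With the array number as a replicate block, 13 members were called higher and 9 lower, and 10245 of all probe sets, with Scn8a 1423515_at (adjusted p = 0.0378) and Scn2b 1436134_at (0.0212) gained, as were Scn2b 1430648_at (0.0347) and Cacna1c 1421297_a_at (0.0374). Scn2b 1430648_at was also gained with the filter at the 75th percentile (0.0358). The deviations of arrays with the same number correlated by 0.04 over the 22519 probe sets, and no label says what the number marks.

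Differences not called, and near 0 or resting on 1 array, changed sign under some alternatives. Scn8a 1451894_a_at gave −0.10 with median centring, −0.042 with quantile normalization and −0.57 to 0.66 with 1 array left out. With 1 array left out, Scn2a 1435933_at ran from −0.19 to 1.85, Scn9a 1442333_a_at from −1.17 to 0.023, Cacna1g from −0.37 to 0.22, Cacna1h 1422710_a_at from −1.93 to 0.17, Cacnb1 1440940_at from −0.23 to 0.077 and Cacnb4 1428928_at from −0.15 to 0.50. Likewise Scn1a 1450120_at ran from −0.012 to 0.83, Scn9a 1442810_x_at from −2.02 to 0.97, Cacna1a 1450510_a_at from −0.058 to 0.93, Cacnb4 1452089_at from −1.03 to 0.026, Cacng2 1420596_at from −0.31 to 0.31 (−0.15 with median centring) and Nalcn from −0.27 to 0.062. Without an intensity trend Cntn1 (0.0646) and Isl1 (0.0739) were lost, and with median centring Ank3 was gained (−0.72, adjusted p = 0.0431). With background at the highest Bacillus control, 41 members lay above it on all 4 arrays, and 45 with background at the median plus 3 median absolute deviations. Dim members are limited by signal over background: 37 of 85 were not tested.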
